A study of Mus musculus with 11 samples.

Results

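The 117 pseudogenes described here are the rows of the deposited RNA-Seq table of 4461 genes whose gene type contains the word pseudogene and which lie outside the X and Y chromosomes. The table had 130 such rows, of which 13 lay on X and 0 on Y. Of the 117, 112 carried the type pseudogene and 5 the type polymorphic_pseudogene. The libraries came from untreated cell lines grown from mammary tumors of female NIC mice on an FVB/N background, in which the MMTV promoter drives ErbB2 and Cre together in the mammary epithelium. KO_1922, KO_1925, KO_2768 and KO_4258 are 4 lines of the genotype NIC/Cpt1a L/L, in which Cre meets conditional alleles of Cpt1a, the enzyme that passes long-chain fatty acids into mitochondria for oxidation. WT_5257 and WT_8905 are 2 lines of the genotype NIC/Cpt1a +/+, which carry the same ErbB2 and Cre transgene with wild-type Cpt1a. The sample titles word the allele status the other way round, and the genotype field and the line names were followed. Each line is a culture from an independent tumor and was sequenced in duplicate, except KO_2768, for which 1 library was used here, giving 11 libraries.

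A pseudogene is a gene copy that is annotated as no longer coding for the full protein of its parent. Processed pseudogenes arise when the mRNA of a parent is reverse transcribed and inserted elsewhere in the genome, so they lack introns, and strongly expressed housekeeping genes such as those of ribosomal proteins have many of them. Unprocessed pseudogenes arise by duplication of a stretch of DNA and often sit beside their relatives in gene clusters, as in the clusters of the major histocompatibility complex and of interferon-inducible genes. Polymorphic pseudogenes code in some mouse strains and not in others. A read from an almost identical copy and a read from its parent can differ at few bases or at none, so the level of a pseudogene in RNA-Seq depends on how such reads were assigned.

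Every gene of the table had been selected by the authors for a difference between these genotypes on these libraries, so a separation of the genotypes is common among all of its rows and the counts below are read against the whole table. Reads per library, recovered from the counts, lengths and FPKM (fragments scaled by gene length and by the reads of the library), were 18.2 to 25.4 M for NIC/Cpt1a L/L (7 libraries) and 15.2 to 17.4 M for NIC/Cpt1a +/+ (4 libraries), so depth and genotype cannot be told apart. The listed genes held 33.3% to 34.6% of these reads. A count of 3, the floor used here, corresponded to 0.118 to 0.197 CPM (counts scaled by the reads of the library). Duplicates were summed and the cell line was the replicate. Cpt1a itself and the 8 epithelial, 3 endothelial and 4 blood cell markers that were looked for are outside the listed genes and were not analysed here, so neither the deletion nor the labelled cell type could be checked. Of 8 mesenchymal markers, 4 were listed (Col1a2, Pdgfrb, Acta2 and Thy1), with a summed level of 8.64, 2.92, 29.1 and 0.0460 CPM in KO_1922, KO_1925, KO_2768 and KO_4258, and of 0 and 0.187 CPM in WT_5257 and WT_8905. In bulk libraries, fewer cells of a kind and less RNA per cell cannot be told apart.

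Most of the pseudogenes stood higher in the NIC/Cpt1a L/L lines. The mean CPM was higher in NIC/Cpt1a L/L for 89 of the 117 and lower for 28, a share of 76.1% higher against 58.8% for all listed genes. All 4 NIC/Cpt1a L/L lines lay above both NIC/Cpt1a +/+ lines for 60 pseudogenes and below both for 27. These are 51.3% and 23.1% of the 117, while the shares over all 4461 listed genes were 35.3% and 37.6%. The 29 copies of cytosolic ribosomal protein genes described below made up 28 of the 89 and 23 of the 60. The 15 pseudogenes of immune gene families, grouped after their values were seen, made up 15 and 8. The shares of the 117 therefore lean on these groups and do not describe the remaining pseudogenes. The 109 pseudogenes that passed the filter on low counts had a median log2 fold change (NIC/Cpt1a L/L minus NIC/Cpt1a +/+) of 0.80 with quartiles of 0.34 and 2.23, and the 4268 listed genes that passed had a median of 0.49 with quartiles of -0.84 and 1.95. In all, the pseudogenes held 0.192% to 0.216% of the reads in the NIC/Cpt1a L/L lines and 0.120% and 0.136% in the NIC/Cpt1a +/+ lines, and the top 2, Rps2-ps10 and Gm13394, made up 44.5% of that level.

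None of the 109 passed edgeR's quasi-likelihood test by line at an adjusted p-value of 0.05, and neither did any of the other listed genes (0% called), with a smallest adjusted p-value of 0.203 among the pseudogenes. At an unadjusted p-value under 0.05, 22 pseudogenes were higher and 10 lower, or 20.2% and 9.17%, beside 21.5% and 29.0% of all listed genes tested. With adjustment over the listed genes alone, Gm12897 was called higher and no pseudogene lower, beside 1.66% and 3.47% of the listed genes. DESeq2 on the same line sums called 10 higher and 2 lower (9.17% and 1.83%), beside 12.4% and 16.6% of the listed genes. The words higher and lower below therefore describe levels in these 6 lines and not calls. Where every library of a genotype was at 0, a fitted log2 fold change depends on the prior count and is no bound. This was so for 13 of the 117 pseudogenes, all of them at 0 in NIC/Cpt1a +/+, beside 234 of the 4461 listed genes. With those pseudogenes that were fitted set to their bound, the median stayed at 0.80.

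**Figure D1:**
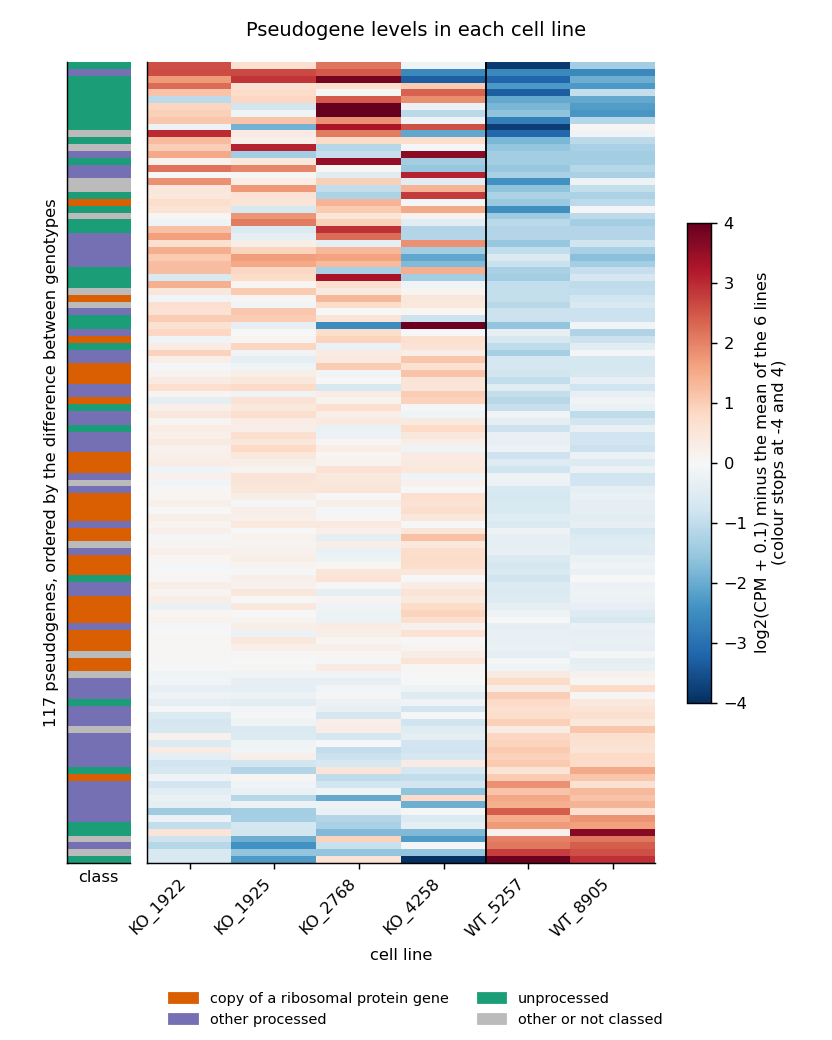
Level of each of the 117 pseudogenes (rows) in the 6 cell lines (columns), as log2(CPM + 0.1) minus the mean of the 6 lines, ordered by the difference between genotypes, with the NIC/Cpt1a L/L lines left of the black line and the class of each pseudogene in the strip. Copies of ribosomal protein genes form a pale band of small, even differences, while the strongest colors belong to unprocessed pseudogenes that differ among the NIC/Cpt1a L/L lines.

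By the GENCODE M21 annotation of GRCm38, which holds 112 of the 117, 69 were processed pseudogenes, 5 transcribed processed, 13 unprocessed, 16 transcribed unprocessed and 5 polymorphic. These classes differed in size and evenness of the difference. The 65 processed pseudogenes that passed the filter had a median log2 fold change of 0.69 with quartiles of -0.79 and 1.00. The 12 unprocessed ones had a median of 3.36 with quartiles of 1.88 and 5.04, and the 14 transcribed unprocessed ones a median of 1.93. The 12 include Gm12897, RP23-76P9.1 and Gm7582, which were at 0 in every NIC/Cpt1a +/+ library. Their fitted values of 8.30, 8.24 and 7.20 depend on the prior count, while their bounds were at least 5.62-, 5.40- and 2.66-fold. The median and upper quartile of the 12 lean on these fitted values. The spread followed the same division. The median SD of log2 CPM among the 4 NIC/Cpt1a L/L lines was 0.41 for processed and transcribed processed pseudogenes and 1.11 for unprocessed and transcribed unprocessed ones, beside 0.44 for all listed genes. Between duplicate libraries of a line it was 0.20 and 0.34. A class was assigned from the annotation and not from these libraries, but the classes also differ in level and in gene family. The copies of ribosomal protein genes described below are all processed or transcribed processed. Most pseudogenes of the immune gene families described below are unprocessed or transcribed unprocessed, and that group varied much among the NIC/Cpt1a L/L lines. The part of class apart from level and family was not tested, so these are descriptions. The annotation now calls 2 of the 117 protein-coding, Fam181b and RP23-62I23.3.

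A parent gene could be assigned to 88 pseudogenes, 11 from the symbol and 77 from the closest coding transcript by sequence, with a median identity of 98.92% and a lowest of 80.22%. Of these, 73 shared a run of 100 or more identical bases with the parent and 13 were identical to it over the aligned bases. The parent was listed for 68 of them, and both partners passed the filter in 66 pairs with 50 distinct parents. Identity was computed on the GENCODE M21 model of the pseudogene, whose coordinates differ from those of the table in 14 of the 66. In 64 of the 66 pairs (97.0%) the pseudogene and the parent differed in the same direction, 54 both higher and 10 both lower in NIC/Cpt1a L/L. Parent and pseudogene are both in a table selected on this contrast, and pairs with a shared parent are not independent. Across the pairs the log2 fold changes had a Pearson correlation of 0.88, given as a description over pairs that share libraries. The sizes were close too. They differed by less than 0.25 in 41 pairs and by more than 1 in 8.

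By the median difference, the closeness went with sequence identity. In the 24 pairs of highest identity, 99.51% or more, the median absolute difference of the log2 fold changes was 0.09 and the largest was 0.50. In the next 27 pairs, from 98.13% to 99.47%, the median was 0.24 and the largest was 5.83, for RP23-76P9.1 and Sp110. In the 15 pairs at 97.96% or less, the median was 0.46 and the largest was 3.35. The largest differences thus did not follow the order of identity. The level of the pairs, the number of reads behind them and the identity vary together, and their separate parts were not tested. Reads of a pair with no mismatch in the aligned bases cannot be told apart by sequence within those bases.

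**Figure D2:**
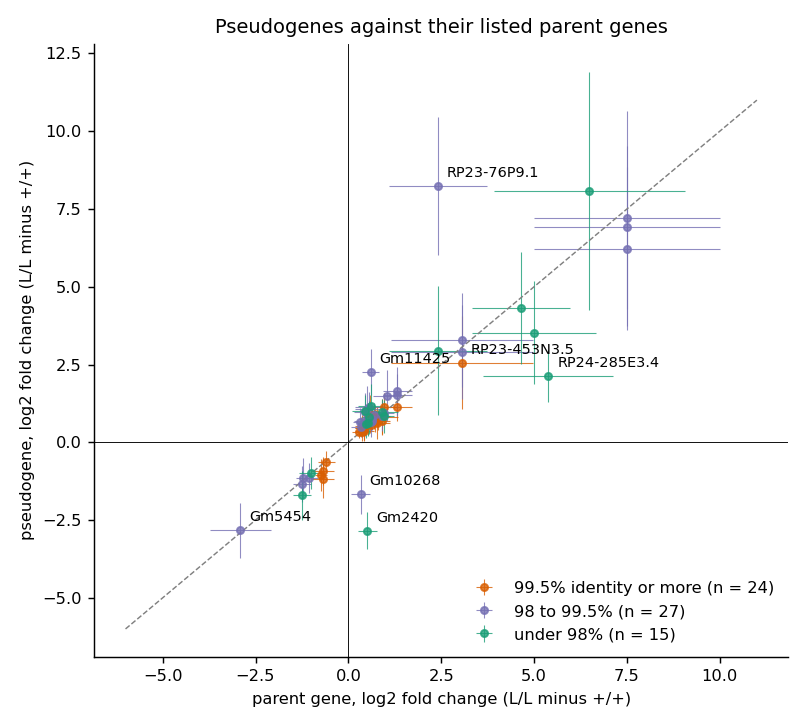
Log2 fold change of the pseudogene (y axis) against that of its listed parent (x axis), NIC/Cpt1a L/L minus NIC/Cpt1a +/+, for 66 pairs, with standard errors from edgeR as bars, identity to the parent as color, and equality as the dashed line. Of the 66 pairs, 64 lie in the quadrants of equal sign, and Gm10268 and Gm2420 lie below 0 while their parents lie above it.

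Copies of cytosolic ribosomal protein genes were the largest family, with 29 members, all of which passed the filter. Ribosomal proteins build the small and large subunits of the ribosome, and their mRNAs are among the most abundant of a growing cell. Of the 29 copies, 28 were higher in NIC/Cpt1a L/L and 1, Gm10268, was lower, and the median of their log2 fold changes was 0.73 with quartiles of 0.57 and 0.84. The 4 NIC/Cpt1a L/L lines all lay above both NIC/Cpt1a +/+ lines for 23 of them, beside 35.3% of all listed genes. The 47 listed ribosomal protein genes themselves behaved alike, with 46 higher, 39 without overlap and a median of 0.54. The scaling matters for differences of this size. DESeq2's median-of-ratios factors shifted the log2 fold changes of all genes by a median of -0.12, and the authors' size factors by 0.10, and 0 of the 26 ribosomal copies with a listed parent changed direction under either. KO_4258 was the highest of the NIC/Cpt1a L/L lines for 18 of the 29 copies (62.1%), beside 30.8% of all listed genes that passed the filter.

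Rps2-ps10, a copy of the small-subunit gene Rps2, had the highest read count of all pseudogenes. Its level was 621, 677, 495 and 700 CPM in KO_1922, KO_1925, KO_2768 and KO_4258, and 251 and 394 CPM in WT_5257 and WT_8905. The genotypes did not overlap, and the log2 fold change was 0.95 ± 0.27 (SE, n = 4 and 2 lines, adjusted p = 0.281), beside 0.95 ± 0.29 for Rps2. Gm13394, a copy of the glycolytic gene Gapdh with 1 mismatch in its aligned bases, stood at 246, 309, 316 and 293 CPM against 201 and 218 CPM, with a log2 fold change of 0.47 ± 0.18 against 0.41 ± 0.23 for Gapdh. Pgam1-ps2, a copy of the glycolytic phosphoglycerate mutase gene Pgam1 without mismatch, had 0.75 ± 0.41 against 0.72 for its parent. These 3 copies and their parents thus differed between the genotypes by nearly the same factor.

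The 78 bases of Gm10736 and Gm10180 show how little such a copy can differ from its parent. Both are copies of Rpl41, which encodes the smallest protein of the large subunit, and their coding bases equal those of the parent, spelled here without the stop codon. The parent's run spans 3 exons at chr10:128548390-128548960, while the copies lie at chr13:111593537-111593611 and chr9:25101407-25101481, all 3 on the minus strand of GRCm38.
Rpl41, Gm10736 and Gm10180: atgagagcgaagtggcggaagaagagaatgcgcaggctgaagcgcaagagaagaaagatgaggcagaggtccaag
Over these identical bases Gm10736 was counted at 31.4, 30.3, 28.8 and 43.3 CPM in the NIC/Cpt1a L/L lines and 29.3 and 23.3 CPM in the NIC/Cpt1a +/+ lines, and Gm10180 at 4.56, 4.46, 3.49 and 6.39 CPM against 4.01 and 2.56 CPM. The genotypes overlapped for both. Per length, Gm10736 was read at 27.9% ± 1.27 of the Rpl41 level (SD, n = 6 lines) and Gm10180 at 3.75% ± 0.390, so 2 equal sequences were counted at unequal but steady shares of the same parent.

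That steadiness held for most pairs. For the 36 pairs with at least 30 reads of both partners in every line, the ratio of pseudogene to parent per length was computed in each line. The highest ratio of the 6 lines exceeded the lowest by a median factor of 1.23, while duplicate libraries of a line differed in the same ratio by a median factor of 1.11. These are unlike measures, a range over 6 line sums and a difference within a pair of libraries. Their sizes alone do not show that lines differed more than duplicates. The factor was under 1.5 in 31 pairs and under 2 in 35 of the 36. The mean ratio itself ranged from 0.156% to 511%, with a median of 5.61%, and was under 10% in 22 pairs. In the 20 ribosomal pairs the factor between lines ranged from 1.10 to 1.75.

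In 4 pairs the pseudogene was read above its parent per length. Gm12191 reached 511% ± 66.4 of Rpl30 (SD, n = 6 lines), a large-subunit gene that was itself read at 53.6 FPKM, the second lowest of the 47 listed ribosomal protein genes, whose median was 473 FPKM. Gm6969 reached 175% ± 12.3 of Cox7a2l, a gene of a cytochrome c oxidase subunit family, Rps2-ps10 reached 142% ± 9.33 of Rps2, and Gm10357 reached 126% ± 12 of Hmgn2, a nucleosome-binding protein gene. Gm3608 was read at nearly the same level as Capza1, which encodes an actin capping protein subunit, at 24.1 against 24.0 FPKM, and its ratio moved least between lines, by a factor of 1.06. Whether reads were exchanged between copy and parent was not tested, since reads were not analysed here.

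**Figure D3:**
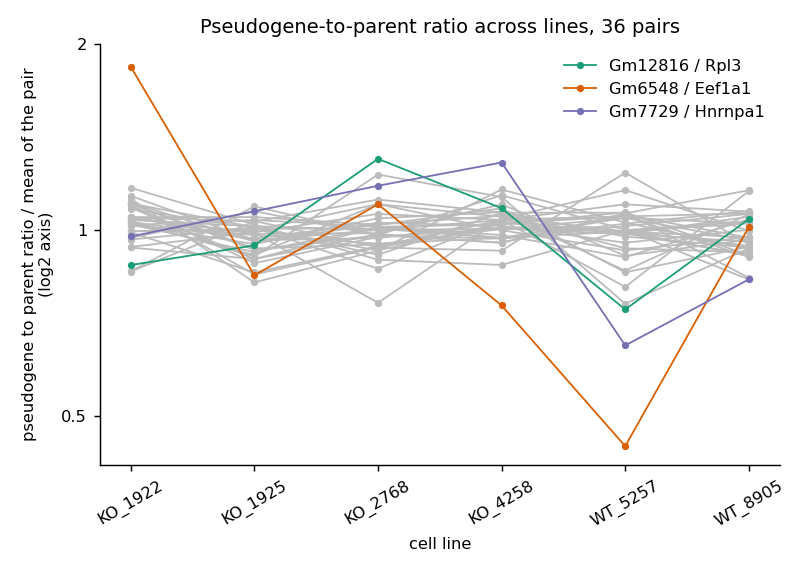
Ratio of pseudogene to parent per length in each cell line, divided by the mean of the pair over the 6 lines (log2 axis), for the 36 pairs with at least 30 reads of both genes in every line, with lines joining the values of a pair. Most pairs stay near 1, and Gm6548, relative to Eef1a1, is high in KO_1922 and low in WT_5257.

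The widest ratio among these 36 belonged to Gm6548, a copy of the translation elongation factor gene Eef1a1 with 36 mismatches. It was counted at 16.5, 8.17, 11 and 10.6 CPM in the NIC/Cpt1a L/L lines and at 3.41 and 8.18 CPM in the NIC/Cpt1a +/+ lines, and its share of the Eef1a1 level ran from 0.0699% in WT_5257 to 0.287% in KO_1922, a factor of 4.10, while duplicates differed by at most 1.22. Gm7729, a copy of Hnrnpa1, an RNA-binding protein gene of the nucleus, came next. In both, the factor between the extreme lines exceeded that of any pair of duplicates, at 1.97 against at most 1.75 for Gm7729. The extreme lines are picked from more comparisons than there are pairs of duplicates. For Gm7729 the values therefore do not separate lines from duplicates.

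Pseudogenes with more than 1 unit of log2 fold change between copy and parent included a second Rpl12 copy. Rpl12 encodes a protein of the large subunit stalk base, and 2 of the 117 copy it. Gm10275 has no mismatch to it and Gm11425 has 4. The window of the coding sequence in which they differ most is shown with capitals at the bases where a copy and the parent differ. It covers coding bases 106 to 225, at chr2:32962117-32962999 on the plus strand for Rpl12 (3 exons), chr10:29699066-29699185 on the minus strand for Gm10275 and chr11:83027773-83027892 on the minus strand for Gm11425.
Rpl12: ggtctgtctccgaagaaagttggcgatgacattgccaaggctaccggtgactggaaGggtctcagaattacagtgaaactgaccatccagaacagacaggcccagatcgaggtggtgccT
Gm10275: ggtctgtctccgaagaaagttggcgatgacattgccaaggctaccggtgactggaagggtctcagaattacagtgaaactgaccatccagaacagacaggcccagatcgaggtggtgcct
Gm11425: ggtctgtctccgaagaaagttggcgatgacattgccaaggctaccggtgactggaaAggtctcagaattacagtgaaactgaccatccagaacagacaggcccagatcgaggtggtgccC
Gm10275 was counted at 40.9, 34.0, 36.5 and 45.2 CPM in NIC/Cpt1a L/L and at 23.6 and 29.2 CPM in NIC/Cpt1a +/+, and its log2 fold change of 0.57 ± 0.22 was next to the 0.60 ± 0.22 of Rpl12. Gm11425 was counted at 1.51, 1.28, 2.44 and 0.851 CPM against 0.253 and 0.375 CPM. All 4 NIC/Cpt1a L/L lines lay above both NIC/Cpt1a +/+ lines, and the log2 fold change was 2.26 ± 0.73 (SE, n = 4 and 2 lines, adjusted p = 0.319). Gm11425 lies 132 bases from Slfn10-ps, a pseudogene of the Schlafen family on the same strand, which had a log2 fold change of 2.23 ± 0.56. In log2 fold change this ribosomal copy was thus nearer to its neighbor than to its parent. By line, Gm11425 was highest in KO_2768, Slfn10-ps in KO_1922 and Rpl12 in KO_4258. Whether the reads of Gm11425 belong to a longer transcript was not tested.

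Gm10268 and Gm2420 were the 2 pseudogenes that differed in the opposite direction from their parents. Gm10268, a copy of the large-subunit gene Rpl17 with 8 mismatches, was counted at 0.656, 0.757, 0.310 and 0.322 CPM in NIC/Cpt1a L/L and 1.58 and 1.69 CPM in NIC/Cpt1a +/+, a log2 fold change of -1.67 ± 0.63, while Rpl17 had 0.33 ± 0.26. It lies within the span of the listed gene 1700086O06Rik, which had -1.30. Rpl17-ps10, the other copy of Rpl17, stood at 0.49 ± 0.33, on the side of the parent.

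Gm2420 was paired with Sfi1, which encodes a centrosome protein, through a GENCODE M21 model with 117 mismatches to it. The table counted Gm2420 over a different span, chr5:32724352-32736194, so the identity of the counted bases to Sfi1 is not known and no sequence is shown.
Gm2420 was counted at 0.219, 0.287, 0.155 and 0.391 CPM in NIC/Cpt1a L/L and at 1.96 and 1.87 CPM in NIC/Cpt1a +/+. The genotypes were far apart and the log2 fold change was -2.84 ± 0.60 (adjusted p = 0.215), while Sfi1 ran from 42.3 to 53.3 CPM against 25.2 and 41.2 CPM, a log2 fold change of 0.51 ± 0.26.

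Akr1b3 and its 3 copies shared a pattern among the lines. Akr1b3 encodes aldose reductase, which reduces glucose and other aldehydes with NADPH. The copies are processed pseudogenes on 3 other chromosomes with 3, 5 and 9 mismatches to it. The window shown, coding bases 91 to 210, is the one with most mismatches, which are in capitals, and lies at chr6:34312664-34312783 for Akr1b3, chr1:55444815-55444934 for RP23-453N3.5 (Gm6644 in GENCODE), chr12:13455761-13455880 for Gm6736 and chr11:40673647-40673766 for Gm12138, each on the minus strand.
Akr1b3: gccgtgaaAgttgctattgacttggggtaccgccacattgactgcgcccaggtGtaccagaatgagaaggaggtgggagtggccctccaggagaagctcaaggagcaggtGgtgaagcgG
RP23-453N3.5: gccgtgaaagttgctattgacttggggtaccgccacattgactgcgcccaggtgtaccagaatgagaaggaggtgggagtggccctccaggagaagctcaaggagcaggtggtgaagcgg
Gm6736: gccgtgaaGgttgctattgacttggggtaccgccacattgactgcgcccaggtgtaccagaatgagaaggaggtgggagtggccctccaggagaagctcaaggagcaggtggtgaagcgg
Gm12138: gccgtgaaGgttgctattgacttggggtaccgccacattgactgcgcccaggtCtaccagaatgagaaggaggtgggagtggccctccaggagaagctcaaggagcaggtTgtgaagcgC
Akr1b3 stood at 89.0, 129 and 164 CPM in KO_1922, KO_1925 and KO_2768, at 0.253 CPM in KO_4258, and at 11.5 and 11.4 CPM in WT_5257 and WT_8905. RP23-453N3.5 stood at 1.19, 1.88, 1.78 and 0.0460 CPM against 0.316 and 0.0937 CPM. Gm6736 stood at 0.874, 1.10, 0.891 and 0.0230 CPM against 0.126 and 0.0624 CPM. Gm12138 stood at 0.777, 0.496, 0.698 and 0.0230 CPM against 0.0631 and 0.0312 CPM. In all 4 genes 3 NIC/Cpt1a L/L lines were above both NIC/Cpt1a +/+ lines while KO_4258 was not, so the genotypes overlapped. The log2 fold changes were 3.06 ± 1.92 for Akr1b3, 2.56 ± 1.49 for RP23-453N3.5, 2.89 ± 1.51 for Gm6736 and 3.30 ± 1.51 for Gm12138. The copies rest on 0 to 2 reads per library in KO_4258 and on 0 to 6 in the NIC/Cpt1a +/+ libraries, with 1 read in all for Gm12138 in each of KO_4258 and WT_8905, so the order among these 3 lines is not resolved for the copies. The 4 listed mesenchymal markers, lowest in KO_4258 among the NIC/Cpt1a L/L lines but lower still in WT_5257, were not tested for a part in the result.

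Gm11585 was present in the same 3 lines and at 0 in the rest. It is a processed copy of Ppih, a cyclophilin gene of the spliceosome, without mismatch to it. The first 120 coding bases are shown because copy and parent are the same over them, at chr11:102124074-102124193 on the plus strand for Gm11585 and, in 2 exons, chr4:119320180-119320474 on the minus strand for Ppih.
Ppih and Gm11585: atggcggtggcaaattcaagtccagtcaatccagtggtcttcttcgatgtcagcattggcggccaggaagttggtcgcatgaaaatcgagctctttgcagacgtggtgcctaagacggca
Its counts were 81 and 64 in the libraries of KO_1922, 74 and 65 in those of KO_1925 and 82 in that of KO_2768, or 3.52, 3.63 and 3.18 CPM. Both libraries of KO_4258 and all 4 NIC/Cpt1a +/+ libraries had 0 counts. The levels in the 3 lines lay within 3.18 to 3.63 CPM, and against the floor of 3 counts in a NIC/Cpt1a +/+ library the NIC/Cpt1a L/L mean stood at least 13.1-fold higher. Because of KO_4258 the genotypes overlapped. Ppih is outside the listed genes and was not analysed here.

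**Figure D4:**
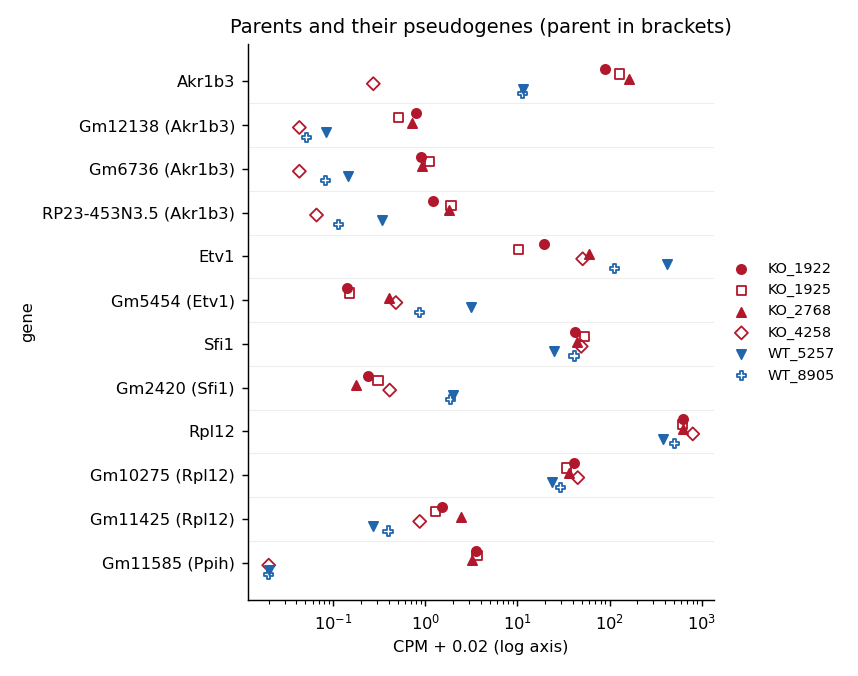
CPM + 0.02 (log axis) in each cell line for 4 listed parents and their copies, with the parent in brackets, and for Gm11585, red for NIC/Cpt1a L/L and blue for NIC/Cpt1a +/+. The 3 Akr1b3 copies, like Akr1b3, are highest in KO_1922, KO_1925 and KO_2768, Gm2420 is lower in all 4 NIC/Cpt1a L/L lines although Sfi1 is not, and Gm11585 is at 0 in KO_4258, WT_5257 and WT_8905.

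A group of 15 pseudogenes belongs to families of immune genes, by their own symbol or by the closest coding gene. The group was put together after its values were seen and carries no test. It covers relatives of Mx1, an antiviral GTPase, of Oas1g, which makes the activator of RNase L, of major histocompatibility class I genes, of the Schlafen gene Slfn8, of the interferon-inducible genes Ifi203 and Gvin1, of the nuclear body genes Sp100, Sp110 and Sp140, and of Klra4, a lectin-like receptor gene of natural killer cells. The mean CPM was higher in NIC/Cpt1a L/L for all 15, which the choice of members can set. Art2a-ps, of an ADP-ribosyltransferase family, was not put in the group and was lower, with a log2 fold change of -2.96 ± 1.62, and BC023105, closest to Gm4841, was not put in it and was higher. In 8 of the 15 the 4 NIC/Cpt1a L/L lines all lay above both NIC/Cpt1a +/+ lines, beside 35.3% of all listed genes, and in 0 they lay below. Without KO_4258, a choice made after the data were seen, this number was 13, beside 46.4% of all listed genes under the same omission. The summed level was 129, 53.0, 123 and 85.4 CPM in KO_1922, KO_1925, KO_2768 and KO_4258, and 15.2 and 35.1 CPM in WT_5257 and WT_8905.

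H2-T10, of the class I genes, was among the most abundant of them and had the smallest standard error, at 38.7, 22.3, 40.5 and 32.0 CPM against 11 and 15.9 CPM, a log2 fold change of 1.31 ± 0.35 (SE, n = 4 and 2 lines, adjusted p = 0.267). Slfn10-ps stood at 9.93, 4.70, 6.90 and 6.72 CPM against 1.07 and 1.94 CPM, also without overlap, with 2.23 ± 0.56 (adjusted p = 0.255). Gm16340, named Ifi203-ps in GENCODE, stood at 8.35, 2.11, 6.12 and 1.15 CPM against 0 and 0.437 CPM, with 4.32 ± 1.81 beside 4.65 for Ifi203. Mx2 stood at 26.7, 4.18, 14.3 and 0.713 CPM against 0.284 and 3.0 CPM, and Oas1b at 32.7, 11.1, 17.5 and 6.51 CPM against 1.61 and 7.87 CPM. In both, KO_4258 lay between the 2 NIC/Cpt1a +/+ lines. H2-K2 stood at 6.48, 2.82, 9.22 and 12.8 CPM against 0.726 and 4.31 CPM, where KO_4258 was the highest and the genotypes overlapped through KO_1925.

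The lines differed much within this group. Its median SD of log2 CPM among the NIC/Cpt1a L/L lines was 1.5 over the 14 members that passed the filter, beside 0.44 for all listed genes and 0.24 between duplicates for the same 14. KO_2768, with 1 library, was the highest line in 7 of the 15 and KO_4258 the lowest NIC/Cpt1a L/L line in 8. Among the NIC/Cpt1a L/L lines alone, KO_2768 was highest in 42.9% of the 14 and KO_4258 lowest in 50.0%. The same lines held these places in 31.0% and 36.4% of all listed genes that passed the filter. The summed level of the 4 listed mesenchymal markers was also highest in KO_2768 and lowest among the NIC/Cpt1a L/L lines in KO_4258, and their part in these results was not tested.

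**Figure D5:**
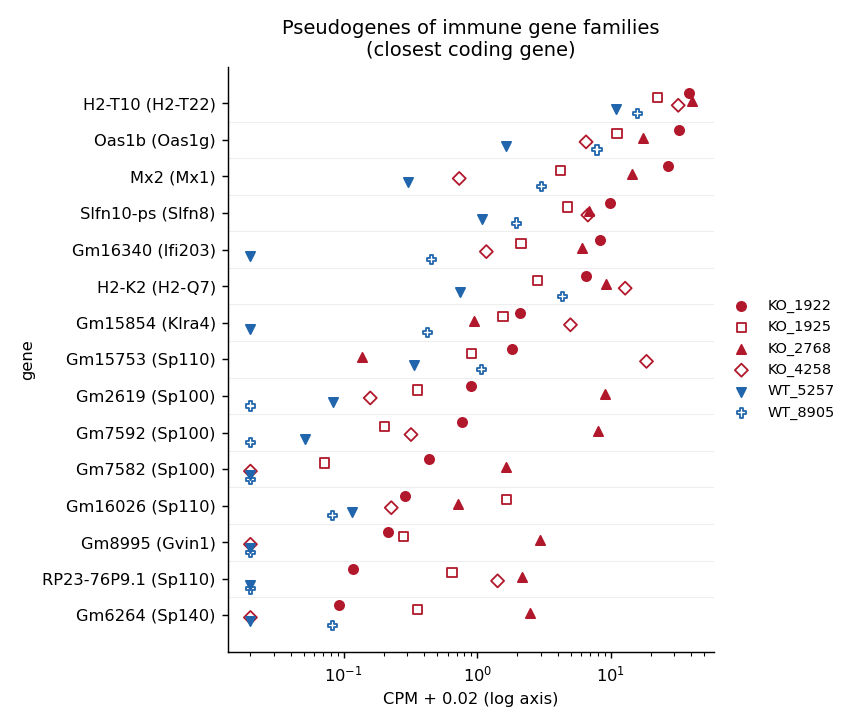
CPM + 0.02 (log axis) of the 15 pseudogenes of immune gene families in each cell line, with the closest coding gene in brackets, red for NIC/Cpt1a L/L and blue for NIC/Cpt1a +/+. KO_2768 (filled triangles) lies far to the right for the Sp100 relatives, and KO_4258 (open diamonds) lies among the blue symbols for Mx2 and Oas1b and far to the right for Gm15753.

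Of these 15, 6 lie in a cluster on chromosome 1 between bases 84990638 and 85550577 of the build the table uses, near Sp100 and Sp110, whose products are interferon-induced proteins of nuclear bodies. The window below, coding bases 39 to 158 of Sp100, is the stretch of 120 bases in which the 3 Sp100 copies differ most from it, with capitals at differing bases. It lies at chr1:85659715-85659834 for Sp100 (plus strand), chr1:85041825-85041944 for Gm7582 (minus), chr1:85536281-85536400 for Gm7592 (plus) and chr1:85317153-85317272 for Gm2619 (minus).
Sp100: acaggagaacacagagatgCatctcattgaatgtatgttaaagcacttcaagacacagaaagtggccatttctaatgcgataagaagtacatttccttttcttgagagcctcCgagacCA
Gm7582: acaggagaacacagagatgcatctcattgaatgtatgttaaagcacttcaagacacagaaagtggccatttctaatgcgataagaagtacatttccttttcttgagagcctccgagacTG
Gm7592: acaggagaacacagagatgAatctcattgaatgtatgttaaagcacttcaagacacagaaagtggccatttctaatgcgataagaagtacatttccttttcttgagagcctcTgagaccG
Gm2619: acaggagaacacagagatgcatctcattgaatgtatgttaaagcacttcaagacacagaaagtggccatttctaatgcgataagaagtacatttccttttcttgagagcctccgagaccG
Sp100 had a fitted log2 fold change of 7.51. Gm2619 stood at 0.874, 0.339, 9.11 and 0.138 CPM in NIC/Cpt1a L/L and at 0.0631 and 0 CPM in NIC/Cpt1a +/+, where 2 reads were counted in all, a ratio between genotypes of 64.8 with an exact 95% counting interval of 17.8 to 538. KO_2768 gave 235 of its 290 NIC/Cpt1a L/L reads, and without that line the ratio was 14.9 (3.92 to 126). Gm7592 stood at 0.753, 0.183, 8.06 and 0.299 CPM against 0.0316 and 0 CPM, where 1 read was counted, a ratio of 116 with an interval of 20.6 to 4590.0. KO_2768 gave 208 of the 259 reads, and without it the ratio was 27.6 (4.73 to 1109.7). Both were highest in KO_2768 by a wide margin. Gm7582 had 0.413, 0.0522, 1.63 and 0 CPM against 0 in all 4 NIC/Cpt1a +/+ libraries. RP23-76P9.1, a copy of Sp110 in the same cluster, stood at 0.0971, 0.626, 2.13 and 1.40 CPM against 0 and 0, at least 5.40-fold higher against that floor. Its parent overlapped between genotypes, at 4.10, 4.23, 7.17 and 0.989 CPM against 1.45 and 0.0937 CPM. RP23-76P9.1 overlaps exons of the listed gene C130026I21Rik, which had a log2 fold change of 4.14, and Gm7582 lies within the span of that gene.

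Gm15753, a copy of Sp110 outside the cluster on chromosome 5, showed another order of lines. It was counted at 18.5 CPM in KO_4258 and at 1.80, 0.887 and 0.116 CPM in KO_1922, KO_1925 and KO_2768, against 0.316 and 1.06 CPM. Sp110 itself was lowest of the NIC/Cpt1a L/L lines in KO_4258. Gm15854, the relative of Klra4, was likewise highest in KO_4258, at 4.97 CPM, with 2.06, 1.54 and 0.930 CPM in the remaining NIC/Cpt1a L/L lines and 0 and 0.406 CPM in the NIC/Cpt1a +/+ lines. Klra4 had a log2 fold change of 5.00 and the copy one of 3.53 ± 1.66.

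Among pseudogenes outside these groups, Gm12897 came closest to a call. It is an unprocessed pseudogene on chromosome 4 without an assigned parent, at 2.19, 0.652, 0.698 and 0.897 CPM in NIC/Cpt1a L/L and at 0 counts in all 4 NIC/Cpt1a +/+ libraries, at least 5.62-fold higher against that floor (adjusted p = 0.203). Serpina3h, of a cluster of serine protease inhibitor genes, stood at 17.7, 39.7, 77.9 and 0.460 CPM against 0.505 and 1.31 CPM. KO_4258 was thus below both NIC/Cpt1a +/+ lines, and the listed gene 5966 bases away, Serpina3g, had a log2 fold change of 6.39. Gm5580 stood at 0.826, 3.86, 0.116 and 0.345 CPM against 0.0631 and 0.0937 CPM, and Gm12057, a relative of Metap2, at 0.340, 0.235, 0.116 and 0.897 CPM against 0 and 0.0624 CPM. Znf41-ps stood at 2.67, 2.77, 4.50 and 1.08 CPM against 0.0947 and 0.50 CPM.

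Of the 22 pseudogenes that have a symbol of their own, 20 passed the filter, and 18 of these were higher and 2 lower. Of the 22, 14 were higher and 2 lower without overlap between the genotypes, beside 35.3% and 37.6% of all listed genes. Among the 14 are H2-T10, Slfn10-ps, Rpl10a-ps1, Rpl17-ps10, Rpl37rt, Rpl38-ps2, Rps16-ps2, Rps2-ps10 and Rps6-ps4. They were already counted in the immune and ribosomal groups, so the share of the 22 is no separate result. Pisd-ps1 and Pisd-ps2, copies of the gene for the mitochondrial enzyme phosphatidylserine decarboxylase, were of unequal level, with 94.3 to 156 CPM against 53.3 and 83.4 CPM for Pisd-ps1, and had log2 fold changes of 0.88 ± 0.29 and 0.59 ± 0.33. Neither overlapped, although in Pisd-ps2 the lowest NIC/Cpt1a L/L line, KO_4258, was next to WT_8905. Rps6-ps4, without mismatch to the small-subunit gene Rps6, had a log2 fold change of 1.14 ± 0.45 beside 1.32 for its parent, and was highest in KO_2768, at 28.0 CPM. Rps16-ps2 and Rpl38-ps2, also without mismatch, had 0.34 ± 0.21 and 0.46 ± 0.27, and Rpl10a-ps1 and Rpl37rt 0.73 ± 0.27 and 0.74 ± 0.32. Cdk3-ps, a cell cycle kinase gene that is a polymorphic pseudogene, overlapped between the genotypes, with 2.36 ± 0.97. Gpr144-ps and Kat2b-ps did not pass the filter, with at most 0.287 CPM in any line.

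Fewer pseudogenes were lower in NIC/Cpt1a L/L. Of the 28 lower by mean CPM, 10 had a listed parent that was lower too, while Gm10268 and Gm2420 had one that was higher. Gm12993 did not pass the filter, and the remaining ones had no listed parent. Fam181b, which the current annotation calls coding, stood at 0.0971, 0, 0 and 0 CPM against 1.96 and 1.69 CPM, with 4 reads in all NIC/Cpt1a L/L libraries together. BC064078, an unprocessed pseudogene, stood at 1.38, 0.365, 3.18 and 0 CPM against 34.3 and 17 CPM, a log2 fold change of -4.39 ± 1.64 (SE, n = 4 and 2 lines, adjusted p = 0.375). Its closest coding match, the vomeronasal receptor gene Vmn2r97, covers only 24.4% of it, so no parent was assigned. Art2a-ps, of the ADP-ribosyltransferase genes, stood at 0.170, 0.0261, 0.814 and 0 CPM against 1.86 and 2.00 CPM. In these 3 every NIC/Cpt1a L/L line was below both NIC/Cpt1a +/+ lines.

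Gm5454 copies Etv1, a transcription factor gene of the ETS family. It stood at 0.121, 0.130, 0.388 and 0.460 CPM against 3.09 and 0.843 CPM, with a log2 fold change of -2.83 ± 0.88 beside -2.91 ± 0.82 for Etv1. Etv1 itself ran from 10.2 CPM in KO_1925 to 60.5 CPM in KO_2768, against 416 CPM in WT_5257 and 114 CPM in WT_8905, so WT_5257 was the highest line for both. Gm3571 and Gm5873 copy Fdps, an enzyme of the mevalonate pathway that makes farnesyl diphosphate, and had -1.33 ± 0.58 and -1.71 ± 0.78 beside -1.25 for Fdps. Gm10182 and Gm10357, copies of Hmgn2, had -1.17 ± 0.62 and -0.92 ± 0.46 beside -0.69. Gm13736, a copy of the signal recognition particle gene Srp9 without mismatch, was the most abundant of the lower ones by FPKM, at 34.7, 34.3, 38.1 and 28.2 CPM against 79.1 and 41.4 CPM. Its log2 fold change was -0.83 ± 0.29, and WT_5257 was again far above the other lines. 0610012G03Rik, also among the 10 highest by FPKM, stood at 29.5 to 32.9 CPM against 42.6 and 37.5 CPM.

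The direction was also set beside that of the neighboring genes. The nearest listed gene that is no pseudogene differed in the same direction in 73 of the tested cases (72.3%), against 70.7% for other listed genes and their nearest listed gene. All 13 tested pseudogenes that overlap their nearest listed gene had its direction, beside 87.5% of overlapping listed genes. Within 100 kb without overlap it was 30 of 36 (83.3%), beside 75.2%, and farther away 30 of 52 (57.7%), beside 59.0%. Gm7162 and Gm16574, both relatives of Rangap1, lie in the span of Airn, a long noncoding RNA gene, and had -2.05 ± 0.69 and -1.91 ± 0.66 beside -1.72 for Airn. Gm14130, a copy of the predicted gene Gm10358, overlaps Gm14133 and had -3.70 ± 1.26 beside -2.58. Gm13669, a copy of the predicted gene Gm6169 that overlaps no other annotated gene, had -3.28 ± 0.87. Of the 117, 46 overlap another annotated gene, 14 of them exon to exon. The strand setting of the counting is not given in the sources used here, so reads of overlapping genes may be mixed.

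The low levels set a limit to what can be read from single pseudogenes. The median of the mean levels was 1.90 CPM, and 42 of the 117 were under 1 CPM. Of the 117, 13 had at most 3 counts in every library of a genotype without overlap between the genotypes, 11 of them low in NIC/Cpt1a +/+, the shallower libraries. The same was not counted over all listed genes, so these numbers do not set the pseudogenes apart from the table. The 8 that did not pass the filter were Gm11359, Gm12993, Gm13423, Gm2022, Gm8995, Gpr144-ps, Kat2b-ps and RP24-426D18.1. The last of these was counted almost entirely in KO_4258, at 1.98 CPM against 0.146, 0.157 and 0.0775 CPM in the remaining NIC/Cpt1a L/L lines and 0 counts in all NIC/Cpt1a +/+ libraries. Intervals and floors cover counting error only. Between duplicates the median SD of log2 CPM was 0.24 for the 109 pseudogenes, beside 0.11 for all listed genes, and among the 4 NIC/Cpt1a L/L lines it was 0.49, beside 0.44.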

How the data were processed

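RNA-Seq libraries of untreated mouse tumor cell lines were analysed from 1 deposited table. According to the study's methods and the submitters' processing notes, reads were trimmed with Trimmomatic, aligned to mm10 (GRCm38) with STAR and counted per gene with HTSeq. Whether counting used strand is not given in the sources used here. The table holds genes the authors selected at an adjusted p-value under 0.05. The authors deposited raw counts, a normalized signal (the count divided by a size factor of the library) and FPKM values per library. The authors' log2 fold changes were not used, and the p-values the authors deposited served only to recover the number of genes they tested, 17561.

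Library totals were recovered from counts, lengths and FPKM of genes with at least 1000 reads. Duplicates were summed by line, and NIC/Cpt1a L/L was compared with NIC/Cpt1a +/+ with edgeR 4.0.16 (TMM, filterByExpr, quasi-likelihood F-test) on all listed genes, in R 4.3.3. P-values were adjusted by Benjamini-Hochberg over 17561 tests at a threshold of 0.05 and measure the spread between lines. Alternatives were DESeq2 1.42.0, 3 other scalings, no filter, separate libraries, a replicate block, other rules for parents and leaving out each line. Parents were assigned from the symbol or as the protein-coding gene of GENCODE M21 whose transcript matched best (blastn 2.17.0, at least 80% identity over 50% of the pseudogene). Sequences and classes come from GENCODE M21 on GRCm38. Ratios of pseudogene to parent are counts per length, for pairs with at least 30 reads of both in every line.

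Named pseudogenes were the 8 highest and 8 lowest log2 fold changes without overlap between genotypes, the 10 highest by FPKM, the 12 highest by CPM with a listed parent, up to 8 by CPM with at most 3 counts in every library of a genotype, and those with a symbol of their own. Pseudogenes named for their parent, their sequence, their neighbor or an immune gene family were added after their values were seen. The members and lists were chosen with earlier results of these data known.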

Additional observations from a re-analysis of the deposited data

Results flagged for a closer look

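In 48 named pseudogenes the level in the 4 NIC/Cpt1a L/L lines was searched for a line far from the other 3, by Dixon's gap test at its 95% critical value. Chance alone would give about 1 in 20 if the values were normally distributed and the pseudogenes picked without regard to them. Here many were picked by their values in these same lines, and some have few counts, so that rate does not apply. In all, 7 were found, in each of which the line apart was the highest. Gm2619 stood at 9.11 CPM in KO_2768 against 0.138 to 0.874 CPM in the remaining NIC/Cpt1a L/L lines, and Gm7592 at 8.06 CPM in KO_2768 against 0.183 to 0.753 CPM. Rps16-ps2 stood at 32.2 CPM in KO_2768 against 25.8 to 26.6 CPM. Gm12897 stood at 2.19 CPM in KO_1922 against 0.652 to 0.897 CPM, and Fam181b at 0.0971 CPM in KO_1922 against 0 in the others. With 3 lines at 0 any count gives such a gap, and this one rests on 2 reads in each library of KO_1922, under the floor of 3 counts, so it says nothing about that line. Rpl38-ps2 stood at 19.9 CPM in KO_1925 against 15.2 to 15.8 CPM. RP24-426D18.1 stood at 1.98 CPM in KO_4258 against 0.0775 to 0.157 CPM.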

How the results depend on the processing

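Calls changed under the alternatives, while the directions of the named pseudogenes did not. DESeq2 on the line sums called 10 pseudogenes higher and 2 lower at the adjusted threshold, beside 12.4% and 16.6% of all listed genes, and 19 lower at an unadjusted p-value under 0.05, beside 38.6%. Taking every library as a separate sample, which counts duplicates as replicates, gave 30 higher and 20 lower adjusted, beside 26.3% and 39.3% of all listed genes tested (31.9% and 21.3% of the pseudogenes), and 59 and 23 unadjusted, beside 49.0% and 42.6%. With the library number as a replicate block these were 18 and 15 adjusted, beside 20.8% and 36.2% of all listed genes (19.1% and 16.0% of the pseudogenes), and 49 and 23 unadjusted, beside 45.4% and 42.6%. The numbers did not pair the libraries, since differences between duplicates correlated by -0.0477 to 0.0332 over 10 pairs of lines. Adjustment over the listed genes gave 1 higher. DESeq2's scaling gave 13 higher unadjusted. Leaving out each line in turn kept 0 adjusted calls, and gave 6 to 26 higher and 3 to 11 lower unadjusted, with 9 and 6 without KO_1922. The fewest of both came without WT_5257, where 1 NIC/Cpt1a +/+ line is left and is assumed to vary like the NIC/Cpt1a L/L lines. The number without overlap ranged from 50 to 76 higher and from 24 to 28 lower, and the median log2 fold change from 0.66 to 0.89. The 76 higher came without KO_4258, where 46.4% of all listed genes lay higher without overlap. For the other scalings and omissions of a line, shares over all listed genes were not computed. Those counts therefore do not set the pseudogenes apart from the table, which was selected on this contrast. The share of pseudogenes in the direction of the parent was 100% for the 7 pairs given by symbol, and 95.5% to 98.2% under the others. Among immune gene families, 13 did not overlap without KO_4258, beside 46.4% of all listed genes, an alternative added after the data were seen. Of 614 alternative values of 45 named pseudogenes, 554 kept direction and side of the threshold, 60 became calls and 0 reversed. Many of these pseudogenes were named for a large difference without overlap between the genotypes. That 0 reversed was therefore largely set by the choice and does not measure stability.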
